A study of Homo sapiens with 8 samples.

Results

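Antimycin A and oligomycin stop oxidative phosphorylation at 2 places, complex III and complex V, and the nuclear genes of complexes III, IV and V are followed here in human neurons exposed to both for 8 h. The genes were chosen by symbol, not by any measured value: protein-coding genes whose symbol begins with UQCR, UQCC, COX and a digit, ATP5 or ATPAF, together with CYC1, CYCS, BCS1L, TTC19, LYRM7, SURF1, SCO1, SCO2 and TMEM70. This gave 72 of the 62826 genes listed, and pseudogenes were left out. They comprise 44 subunit genes, 24 assembly factor genes, the electron carrier CYCS, the supercomplex factor COX7A2L, the ATP synthase inhibitor ATP5IF1 and the read-through gene ATP5MF-PTCD1.

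Treated cells received antimycin A at 25 µM with oligomycin at 10 µM for 8 h, and vehicle cells received DMSO. All cells were wild-type LUHMES, a conditionally immortalised human midbrain line in which tetracycline switches off the MYC transgene that keeps precursors dividing, and all were first differentiated for 6 days in medium with tetracycline (1 µg/mL), dbcAMP (1 mM) and GDNF (2 ng/mL). Each group has 4 libraries of poly(A)-selected RNA, numbered 2 to 5 after separate differentiations, each with 4 technical replicates, and each library holds between 93717712 and 110020746 reads assigned to genes. All libraries come from 1 cell line, so the p-values measure the spread between differentiations of it.

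Complex III passes electrons from ubiquinol to cytochrome c, and antimycin A blocks it at its inner quinone site. Complex IV takes the electrons from cytochrome c and gives them to oxygen. Complex V, the ATP synthase, lets protons return through a ring of c subunits and makes ATP, and oligomycin blocks the proton path at that ring. Each complex joins subunits encoded in the nucleus with a few encoded in mitochondrial DNA, and assembly factors insert heme, copper and iron-sulfur groups and join the modules without staying in the finished enzyme.

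Levels are given as CPM, a gene's reads relative to the TMM-scaled total of its library, with values listed in the order of replicates 2, 3, 4 and 5. Fold changes are log2 of treated over vehicle, and a gene is called when the adjusted p of the edgeR quasi-likelihood F-test is under 0.05. Of the 72 genes, 66 had enough reads to be tested. Between genes, levels are compared as TPM, which the authors scaled per effective length.

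The cells carried neuronal RNA: all 10 neuron markers exceeded 1 CPM, with summed levels of 5564 to 5773 CPM in treated cells and 6493 to 7209 CPM in vehicle cells. Single neuron markers went both ways: 3 of the 10 were called higher and 5 lower, beside 27.7% and 30.2% of all genes tested. Of 12 dopaminergic markers, 5 exceeded 1 CPM, including TH and SLC6A3, while DDC, SLC18A2, PITX3, LMX1A, LMX1B, FOXA2 and ALDH1A1 stayed under 1 CPM in all libraries. Cycling progenitor markers summed to 223 to 236 CPM in treated cells and 318 to 427 CPM in vehicle cells, with SOX2 under 1 CPM. Of 6 astrocyte markers GFAP, AQP4 and ALDH1L1 were under 1 CPM, while the others were not. SLC1A3 had 28.1 to 29.9 CPM in treated cells and 2.36 to 3.42 CPM in vehicle cells. SLC1A2 had 6.76 to 8.35 CPM in treated cells and 12.1 to 12.6 CPM in vehicle cells, and GJA1 23.4 to 28.3 CPM in treated cells and 32.5 to 35.03 CPM in vehicle cells. The list summed to 60.6 to 65.2 CPM in treated cells and 48.2 to 51.3 CPM in vehicle cells. Of the oligodendrocyte markers reported here, OLIG2 had 16.7 to 21.0 CPM in treated cells and 23.0 to 32.9 CPM in vehicle cells, MBP 2.25 to 4.25 CPM over all libraries, and MOG, MAG and SOX10 were under 1 CPM. All 6 microglial markers were under 1 CPM. The part of these differences in the results below was not tested, and in bulk RNA fewer cells of a type and less RNA per cell cannot be told apart.

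Vehicle replicate 2 stood apart from the other vehicle libraries. The median member was 0.26 lower there on the log2 scale than in the mean of the other 3 vehicle libraries, and it was the lowest vehicle library for 45 of the 66 tested members (68.2%), against 38.5% of all genes tested. It also held the most mitochondrial RNA: MT-CO1, the core subunit of complex IV encoded in mitochondrial DNA, had 8211, 8257, 7309 and 5897 CPM in treated cells, against 24887, 10504, 10421 and 7932 CPM in vehicle cells. Counts that change when it is left out are given beside those over all libraries.

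Most of the nuclear genes of complexes III, IV and V did not pass the threshold. Of the 66 tested members 21 were called (31.8%), 8 higher and 13 lower in treated cells, where 57.9% of all 19785 genes tested were called, 27.7% higher and 30.2% lower. Among protein-coding genes alone 59.2% were called, 30.0% higher and 29.2% lower. Without vehicle replicate 2, 29 members were called (43.9%), 10 higher and 19 lower, where 62.9% of all genes were. The median fold change of the members was 0.05 over all libraries and −0.01 without vehicle replicate 2. Over all libraries their median size, irrespective of sign, was 0.17, and all genes tested had a median of −0.02 and a median size of 0.41. No called member reached a log2 fold change of 1 in size, while 17.3% of all genes tested were called at that size or beyond. The 4 treated libraries lay entirely above the 4 vehicle libraries for 11 members and entirely below them for another 11, while such separation held for 25.3% and 28.2% of all genes, 53.4% in all.

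Subunits and assembly factors differed in their counts. Among 38 tested subunit genes, 5 were higher and 3 lower, with a median fold change of 0.12. Among 24 assembly factor genes, 2 were higher and 9 lower, with a median of −0.12. Of all genes 27.7% were higher and 30.2% lower. Without vehicle replicate 2, subunits stood at 6 higher and 5 lower and assembly factors at 3 higher and 13 lower, where 30.6% of all genes were higher and 32.4% lower. With scaling by library totals alone, which moves the median of all genes to −0.12, 2 subunit genes were higher and 4 lower, and 2 assembly factor genes were higher and 10 lower. The medians were then 0.02 for subunits and −0.22 for assembly factors, and over all members the split was 4 higher and 15 lower. With that scaling 57.1% of all genes were called, 21.6% higher and 35.5% lower.

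**Figure D1:**
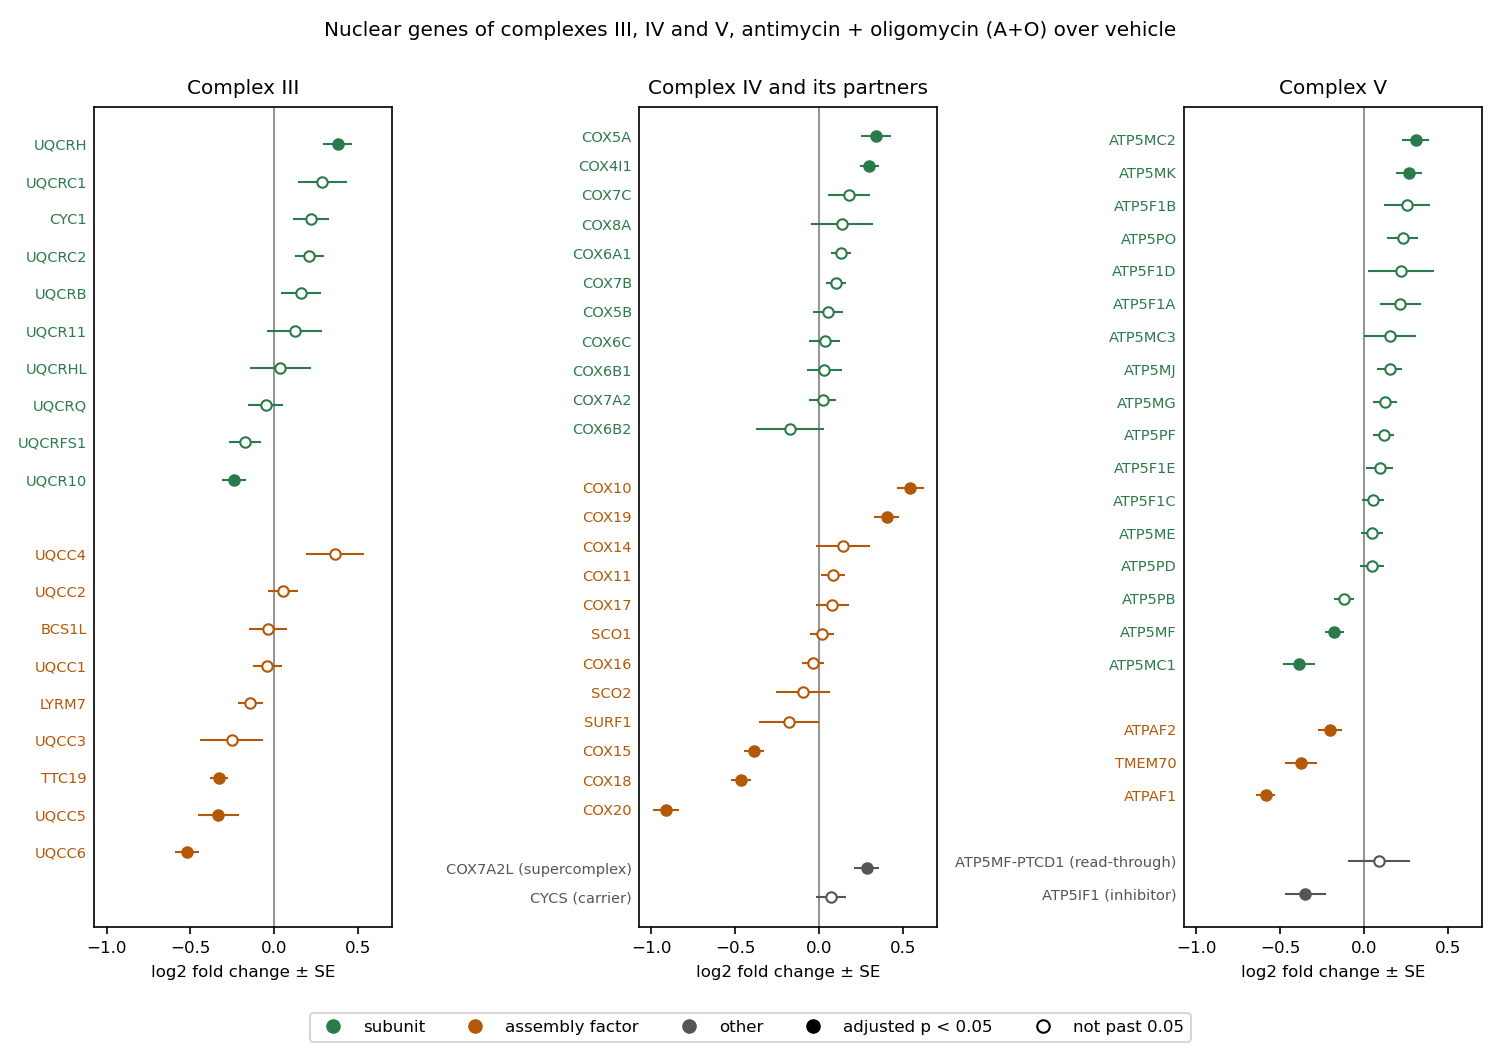
Log2 fold change of treated (antimycin + oligomycin, A+O) over vehicle cells for each of the 66 tested genes (points, ± SE; filled where the adjusted p is under 0.05), by complex and role, n = 4 libraries per group. Most subunits lie close to 0, all 3 complex V assembly factors lie below 0, and COX20 has the lowest value at −0.91.

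All 3 complex V assembly factors chosen by symbol were lower in treated cells, where 30.2% of all genes were lower. ATPAF1, the chaperone that binds the beta subunit before the catalytic head is built, had 54.3, 53.7, 52.4 and 55.6 CPM in treated cells, against 84.2, 78.0, 82.0 and 80.03 CPM in vehicle cells (log2 fold change −0.59 ± 0.055 (SE), adjusted p = 1.12e-05). Its treated libraries all lay below the vehicle ones, and its level fell by 33.4%. TMEM70, which helps to form the c-subunit ring, had 17.8, 16.5, 16.4 and 18.5 CPM in treated cells, against 18.5, 23.5, 23.7 and 24.0 CPM in vehicle cells (log2 fold change −0.38 ± 0.095 (SE), adjusted p = 0.00624). Treated replicate 5 reached the level of vehicle replicate 2, so the groups met at their edges, and the value was −0.46 without vehicle replicate 2 (adjusted p = 0.000123). ATPAF2, the matching chaperone of the alpha subunit, had 12.3, 13.5, 11.9 and 11.6 CPM in treated cells, against 13.9, 13.8, 14.3 and 14.8 CPM in vehicle cells (log2 fold change −0.20 ± 0.073 (SE), adjusted p = 0.0334). The ATPAF2 groups did not overlap, but the gap was small, and it missed the threshold when treated replicates 2, 4 or 5 or vehicle replicates 4 or 5 were left out, with adjusted p-values of 0.0769, 0.107, 0.0607, 0.0739 and 0.0871.

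Complex IV assembly factors moved in both directions, 2 higher and 3 lower of 12 (41.7% called, against 57.9% of all genes), and 3 higher and 5 lower without vehicle replicate 2. COX20, the chaperone that holds newly made subunit 2 for its copper centre, had 28.6, 29.99, 29.7 and 32.5 CPM in treated cells, against 64.5, 54.6, 55.0 and 53.7 CPM in vehicle cells (log2 fold change −0.91 ± 0.077 (SE), adjusted p = 5.53e-06). This was the member with the largest change: its level fell by 47.0% in treated cells, with no overlap, and vehicle replicate 2 was the highest library. COX18, which moves the tail of the same subunit across the inner membrane, had 21.3, 20.6, 21.8 and 20.7 CPM in treated cells, against 28.5, 30.5, 29.2 and 28.1 CPM in vehicle cells (log2 fold change −0.46 ± 0.06 (SE), adjusted p = 0.000101). All treated COX18 libraries lay below all vehicle ones.

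Heme A, the cofactor particular to complex IV, is made in steps by COX10 and then COX15, and their genes went opposite ways. COX10, which adds the farnesyl tail to heme b, had 31.4, 30.8, 34.0 and 32.6 CPM in treated cells, against 25.2, 21.7, 21.2 and 20.4 CPM in vehicle cells (log2 fold change 0.54 ± 0.079 (SE), adjusted p = 0.000218). COX15, which acts on the product of COX10, had 56.6, 57.0, 55.7 and 59.6 CPM in treated cells, against 69.7, 74.4, 75.9 and 79.4 CPM in vehicle cells (log2 fold change −0.39 ± 0.06 (SE), adjusted p = 0.00034). Neither gene's groups overlapped. COX19, a twin-cysteine protein of copper supply to complex IV, had 34.5, 35.5, 30.2 and 30.2 CPM in treated cells, against 25.1, 25.5, 23.3 and 24.9 CPM in vehicle cells (log2 fold change 0.40 ± 0.076 (SE), adjusted p = 0.00116). It was higher in every treated library than in any vehicle library.

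The copper chaperones SCO1 and SCO2 and the early factor SURF1 were not called over all libraries. SCO1, which loads copper into subunit 2, had 40.6, 39.1, 42.0 and 46.1 CPM in treated cells, against 39.1, 40.5, 42.5 and 43.7 CPM in vehicle cells (log2 fold change 0.02 ± 0.071 (SE), adjusted p = 0.839), but its fold change was −0.31 with an offset for the effective length of its transcripts (adjusted p = 0.0128). SCO2, its partner in that step, had 6.21, 6.12, 6.42 and 5.05 CPM in treated cells, against 4.25, 6.83, 7.32 and 7.04 CPM in vehicle cells, and was −0.25 without vehicle replicate 2 (adjusted p = 0.0371), against −0.10 with it (adjusted p = 0.629). SURF1, a factor of early assembly known from Leigh syndrome, had 11.7, 10.00, 10.2 and 11.3 CPM in treated cells, against 7.51, 13.4, 14.3 and 13.8 CPM in vehicle cells. Apart from vehicle replicate 2 every vehicle value of SCO2 and SURF1 exceeded every treated one, and SURF1 was −0.36 without vehicle replicate 2 (adjusted p = 0.00194), against −0.18 with it (adjusted p = 0.404). The remaining complex IV factors COX11, COX14, COX16 and COX17 had fold changes between −0.04 and 0.14 and no call, and COX17 was 0.17 without vehicle replicate 2 (adjusted p = 0.0358).

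**Figure D2:**
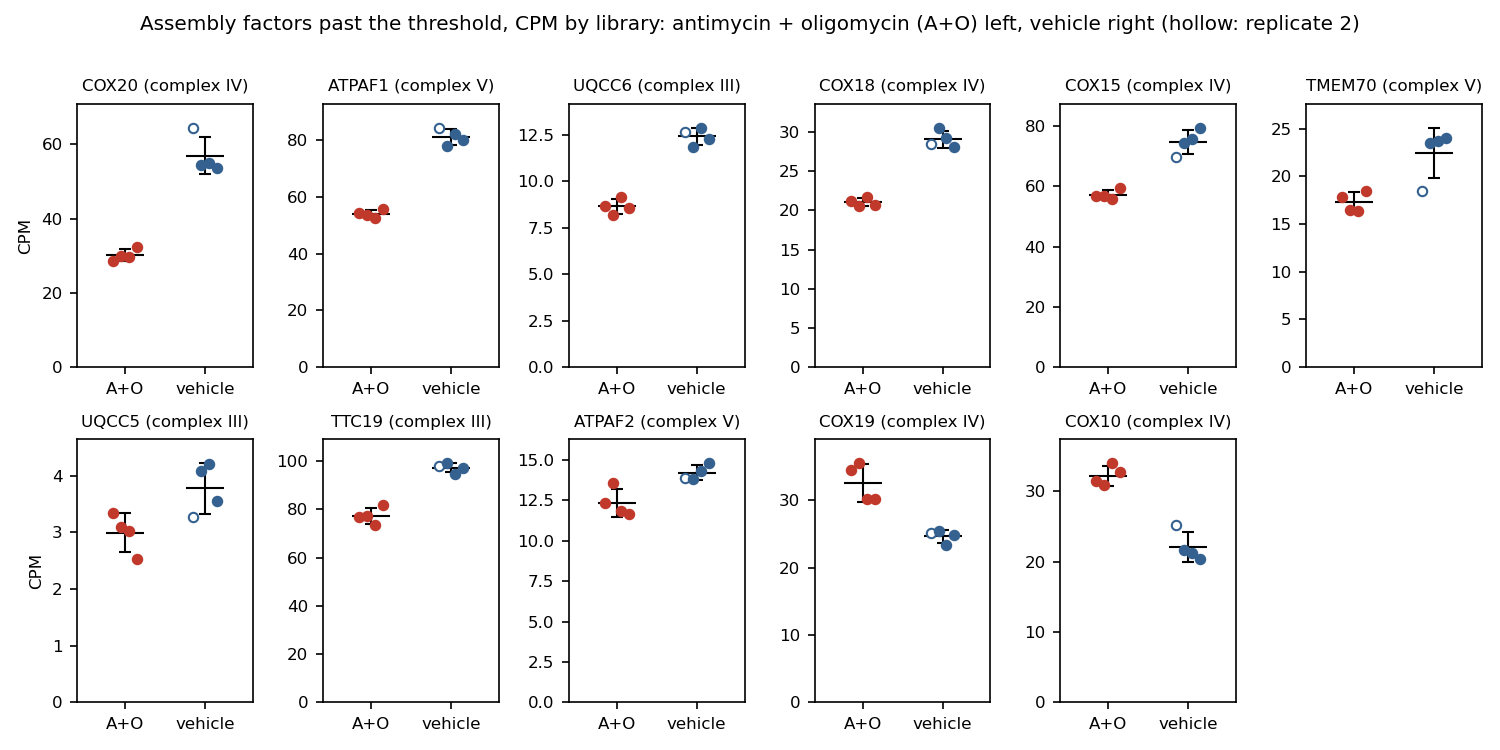
CPM by library of the 11 called assembly factors, with treated cells (A+O) left of vehicle cells; points are libraries, bars mean ± SD (n = 4), and hollow points are vehicle replicate 2. COX20 lies at 28.6 to 32.5 CPM in treated cells and 53.7 to 64.5 CPM in vehicle cells, and COX10 and COX19 are the 2 that lie higher in treated cells.

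Complex III had 3 of 9 assembly factors lower (33.3%, against 30.2% of all genes) and none higher, and 5 lower and none higher without vehicle replicate 2. UQCC6, a short inner membrane protein needed for complex III assembly, had 8.67, 8.18, 9.15 and 8.55 CPM in treated cells, against 12.6, 11.8, 12.9 and 12.3 CPM in vehicle cells (log2 fold change −0.52 ± 0.07 (SE), adjusted p = 0.00013). TTC19, which clears fragments of the Rieske protein from the finished complex, had 76.9, 77.2, 73.5 and 81.6 CPM in treated cells, against 98.1, 99.0, 94.6 and 97.1 CPM in vehicle cells (log2 fold change −0.33 ± 0.056 (SE), adjusted p = 0.000552). For both, all treated libraries lay below all vehicle libraries. UQCC5, a small protein of early cytochrome b assembly, had 3.34, 3.09, 3.02 and 2.52 CPM in treated cells, against 3.26, 4.08, 4.21 and 3.55 CPM in vehicle cells (log2 fold change −0.33 ± 0.12 (SE), adjusted p = 0.0386). Its groups overlapped at these low levels, and it missed the threshold when replicate 3, 4 or 5 of either group was left out, with adjusted p-values from 0.0516 to 0.108.

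The factors that put the Rieske iron-sulfur protein in place were not called. BCS1L, the ATPase that carries the folded Rieske protein across the inner membrane, had 20.8, 21.3, 21.9 and 19.6 CPM in treated cells, against 16.5, 21.8, 23.9 and 23.6 CPM in vehicle cells (log2 fold change −0.04 ± 0.11 (SE), adjusted p = 0.788), with overlapping groups. LYRM7, which holds the Rieske protein beforehand, had a fold change of −0.14 (adjusted p = 0.128). UQCC1, UQCC2, UQCC3 and UQCC4, whose products act on cytochrome b and its partners, lay between −0.25 and 0.36 without a call. Without vehicle replicate 2, UQCC3 was called at −0.42 (adjusted p = 0.00933) and UQCC1 at −0.13 (adjusted p = 0.042).

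Nuclear subunits of complex III, the complex that antimycin A blocks, gave 1 higher and 1 lower gene of 10. The counts were 2 higher and 3 lower without vehicle replicate 2. UQCRH, the acidic hinge protein beside cytochrome c1, had 101, 95.5, 100.1 and 104 CPM in treated cells, against 64.4, 77.6, 83.4 and 83.4 CPM in vehicle cells (log2 fold change 0.38 ± 0.085 (SE), adjusted p = 0.00351). UQCR10, a small membrane subunit, had 46.3, 42.8, 43.7 and 40.1 CPM in treated cells, against 55.9, 48.5, 51.0 and 48.9 CPM in vehicle cells (log2 fold change −0.24 ± 0.071 (SE), adjusted p = 0.0147). The groups did not overlap for either gene. UQCRHL, an intronless gene nearly identical to UQCRH, is uncertain because reads can be divided between the 2, and it had 8.53 ± 1.58 CPM in treated cells and 8.33 ± 2.15 CPM in vehicle cells (SD, n = 4 each).

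Among the catalytic and core subunits of complex III none was called over all libraries. UQCRFS1, the Rieske protein itself, had 58.0, 55.9, 56.7 and 59.3 CPM in treated cells, against 51.6, 67.9, 69.8 and 69.9 CPM in vehicle cells. Here vehicle replicate 2 fell among the treated libraries while the other vehicle libraries lay above them, and the fold change was −0.17 with it (adjusted p = 0.145) and −0.27 without vehicle replicate 2 (adjusted p = 0.000729). CYC1, cytochrome c1, had 68.1, 61.7, 64.9 and 50.7 CPM in treated cells, against 44.5, 52.7, 57.4 and 56.4 CPM in vehicle cells (log2 fold change 0.22 ± 0.11 (SE), adjusted p = 0.11), and was called at 0.30 without treated replicate 5 (adjusted p = 0.0207). UQCRC1, a core protein, had 152, 139, 143 and 117 CPM in treated cells, against 78.3, 122, 127 and 125 CPM in vehicle cells (log2 fold change 0.29 ± 0.15 (SE), adjusted p = 0.122). UQCRC2, the other core protein, had 179, 172, 186 and 207 CPM in treated cells, against 139, 159, 172 and 173 CPM in vehicle cells (log2 fold change 0.21 ± 0.086 (SE), adjusted p = 0.0605). The treated and vehicle libraries of CYC1, UQCRC1 and UQCRC2 overlapped. The other subunits UQCRB, UQCRQ and UQCR11 had fold changes from −0.05 to 0.16, and without vehicle replicate 2 UQCRB was called at 0.29 (adjusted p = 0.0035) and UQCRQ at −0.15 (adjusted p = 0.0365).

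Complex IV had 2 higher and no lower genes among 11 tested subunits (18.2% called, against 57.9% of all genes). COX4I1, the common form of subunit 4 and one of the first nuclear subunits to join, had 263, 255, 269 and 246 CPM in treated cells, against 201, 212, 215 and 213 CPM in vehicle cells (log2 fold change 0.30 ± 0.056 (SE), adjusted p = 0.00117). COX5A, which pairs with subunit 4, had 98.1, 91.7, 96.6 and 112 CPM in treated cells, against 68.1, 78.2, 84.0 and 85.1 CPM in vehicle cells (log2 fold change 0.34 ± 0.088 (SE), adjusted p = 0.00797). Both genes were higher in every treated library than in any vehicle library, but COX5A lost its call with scaling by library totals at 0.24 (adjusted p = 0.0793), as COX4I1 did when only protein-coding transcripts were counted. The other 9 tested subunits had fold changes from −0.17 (COX6B2) to 0.18 (COX7C), and none was called.

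Alternative forms of complex IV subunits were nearly silent in these neurons. COX4I2, the form of subunit 4 known from lung, had 0 reads in all 8 libraries, as did COX7A1 of muscle and heart and COX7B2. A count of 0 in a library allows up to 3 reads, or 0.0320 CPM in the shallowest library. COX6A2, another muscle form, had 0 to 2 reads and COX8C 3 to 14 reads per library, and ATP5MGL, a relative of ATP5MG, had 1 to 2 reads. These 6 genes were not tested.

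CYCS, the cytochrome c that carries electrons between complexes III and IV, had 339, 339.8, 350.4 and 415 CPM in treated cells, against 299, 356, 360.2 and 361 CPM in vehicle cells (log2 fold change 0.07 ± 0.089 (SE), adjusted p = 0.522). Treated replicate 5 was the highest and vehicle replicate 2 the lowest library, and the rest overlapped. COX7A2L, which ties complexes III and IV into supercomplexes, had 88.9, 83.9, 86.8 and 86.5 CPM in treated cells, against 60.9, 72.7, 74.1 and 76.9 CPM in vehicle cells (log2 fold change 0.28 ± 0.076 (SE), adjusted p = 0.00927). All treated COX7A2L libraries lay above all vehicle ones, but with library totals its fold change was 0.18 (adjusted p = 0.132).

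Complex V had 2 higher and 2 lower genes among 17 tested subunits (23.5% called, against 57.9% of all genes), and all 4 encode parts of the membrane sector that holds the c ring. ATP5F1A and ATP5F1B encode the alpha and beta subunits of the catalytic head. ATP5F1A had 614, 574, 600.3 and 658 CPM in treated cells, against 386, 550.3, 586 and 584 CPM in vehicle cells (log2 fold change 0.22 ± 0.12 (SE), adjusted p = 0.157). ATP5F1B had 862, 821, 845 and 849 CPM in treated cells, against 490.3, 754, 791 and 797 CPM in vehicle cells (log2 fold change 0.25 ± 0.14 (SE), adjusted p = 0.132). For ATP5F1B the treated libraries lay above all vehicle ones, most of the distance being to vehicle replicate 2, and neither gene passed the threshold. ATP5MK, a small protein of ATP synthase dimers, had 58.2, 55.6, 58.0 and 63.8 CPM in treated cells, against 43.5, 48.6, 51.6 and 51.9 CPM in vehicle cells (log2 fold change 0.27 ± 0.075 (SE), adjusted p = 0.0113). ATP5MF, subunit f of the membrane part, had 54.3, 52.5, 55.2 and 53.0 CPM in treated cells, against 61.5, 57.6, 62.5 and 61.8 CPM in vehicle cells (log2 fold change −0.18 ± 0.056 (SE), adjusted p = 0.019). The groups of ATP5MK and ATP5MF did not overlap. ATP5MK lost its call with library totals at 0.17 (adjusted p = 0.144), and ATP5MF lost its call without treated replicate 3 or vehicle replicate 4 or 5, with adjusted p-values of 0.0631, 0.057 and 0.0538. With an offset for effective length ATP5MF was −0.13 and not called (adjusted p = 0.141). ATP5MF also shares exons with the read-through gene ATP5MF-PTCD1, which had a fold change of 0.09 (adjusted p = 0.694). The remaining complex V subunits outside the c-subunit family had fold changes from −0.12 (ATP5PB) to 0.23 (ATP5PO) with no call.

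ATP5IF1 encodes the small protein that stops the ATP synthase from running backwards and hydrolysing ATP, the direction it takes when respiration fails. It had 51.5, 48.9, 53.3 and 50.4 CPM in treated cells, against 85.6, 58.5, 58.8 and 57.2 CPM in vehicle cells (log2 fold change −0.35 ± 0.12 (SE), adjusted p = 0.0326). All treated libraries lay below all vehicle ones, yet vehicle replicate 2 was far above its group: the value was −0.19 without vehicle replicate 2 (adjusted p = 0.00747). Without treated replicate 2, 3, 4 or 5 it missed the threshold at 0.0643, 0.0819, 0.0562 and 0.0679.

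The c subunit, where oligomycin binds, is encoded by the genes ATP5MC1, ATP5MC2 and ATP5MC3, whose products differ in the import signal that is cut off but share 1 mature protein. ATP5MC1 had 24.9, 22.7, 23.6 and 20.5 CPM in treated cells, against 25.2, 30.2, 33.1 and 31.7 CPM in vehicle cells (log2 fold change −0.39 ± 0.097 (SE), adjusted p = 0.00597). ATP5MC2 had 161, 151, 154 and 138 CPM in treated cells, against 106, 124, 132 and 126 CPM in vehicle cells (log2 fold change 0.31 ± 0.079 (SE), adjusted p = 0.0073). ATP5MC3 had 123, 117, 127 and 135 CPM in treated cells, against 74.5, 116, 128 and 134 CPM in vehicle cells (log2 fold change 0.15 ± 0.15 (SE), adjusted p = 0.422). Thus ATP5MC1 was lower and ATP5MC2 higher with no overlap, and ATP5MC3 was not called; with library totals ATP5MC2 was 0.21 (adjusted p = 0.0914) and ATP5MC1 still lower at −0.49 (adjusted p = 0.00393).

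Shares within the family do not depend on the scaling of libraries. ATP5MC1 gave 8.08, 7.81, 7.74 and 6.98% in treated cells, against 12.3, 11.1, 11.3 and 10.9% in vehicle cells of the reads of the 3 genes. The shares averaged 7.65 ± 0.47% in treated cells and 11.4 ± 0.60% in vehicle cells (SD, n = 4 each), with no overlap (exact two-sided permutation test, p = 0.0286, the smallest that 70 assignments allow; 0.114 when adjusted over the 4 shares compared). ATP5MC2 held 50.4 ± 2.3% in treated cells and 46.4 ± 3.6% in vehicle cells (exact permutation p = 0.0857, adjusted 0.171). ATP5MC3 held 42.0 ± 2.8% in treated cells and 42.2 ± 4.2% in vehicle cells (exact permutation p = 0.943, also after adjustment). UQCRHL, the fourth share, held 7.81 ± 1.1% of the reads of itself and UQCRH in treated cells and 9.94 ± 3.5% in vehicle cells (exact permutation p = 0.257, adjusted 0.343). In the COX4I, COX6A and COX7A families only 1 gene exceeded 1 CPM, so no share was compared.

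**Figure D3:**
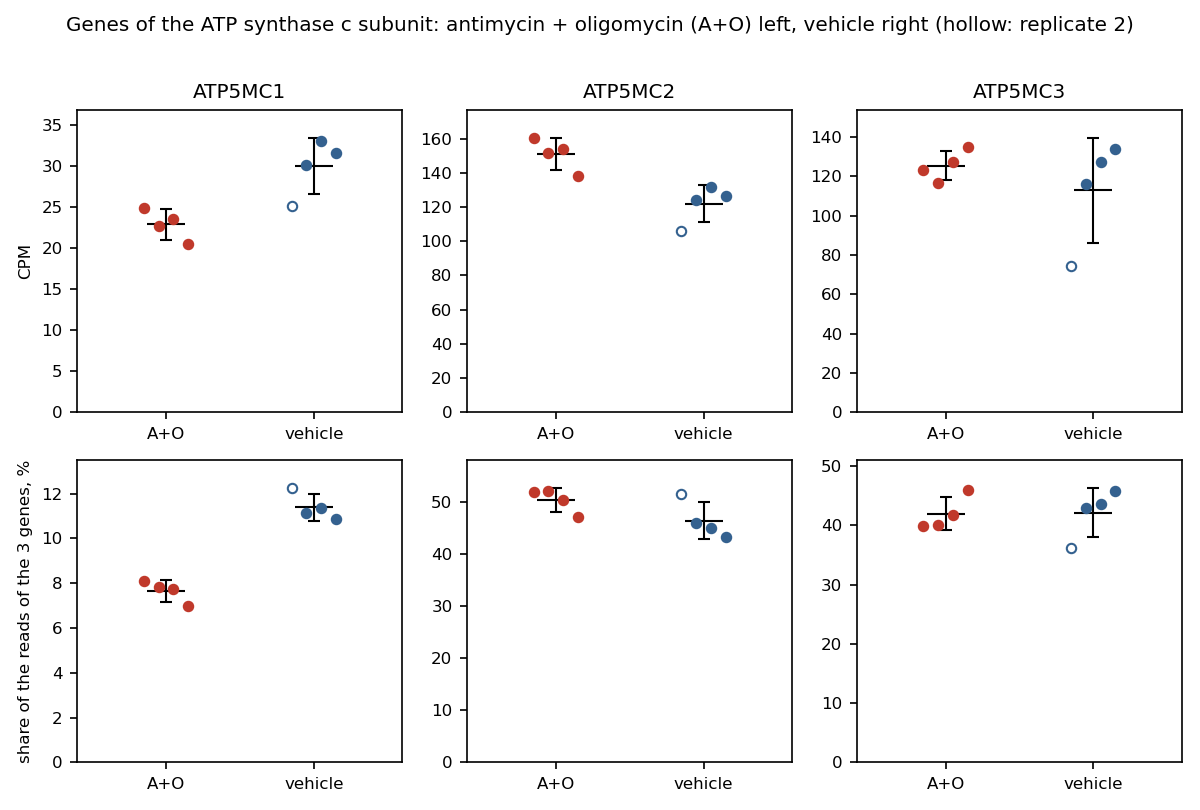
CPM (top) and share of the reads of the 3 genes (bottom, percent) of ATP5MC1, ATP5MC2 and ATP5MC3 by library, treated cells (A+O) left and vehicle cells right; points are libraries, bars mean ± SD (n = 4), and hollow points are vehicle replicate 2. The ATP5MC1 share lies between 6.98 and 8.08% in treated cells, below all vehicle cells.

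The promoters of ATP5MC1 and ATP5MC2, all 3 windows of ATP5MC2 included, are shown because these genes encode 1 mature protein and were both called, and that of COX10 because COX10 rose most and a second gene starts in it. Each is the RefSeq window on GRCh38.p14 from 250 bases before to 50 bases after the start, read along the gene's strand. Capitals mark CCAAT (the NF-Y box), TGACGTCA (the CRE of CREB and ATF factors), CCGGAAG (the ETS core that GABP reads) and AAGATGGC (the YY1 box).
ATP5MC1, chr17:48892537-48892836, plus strand: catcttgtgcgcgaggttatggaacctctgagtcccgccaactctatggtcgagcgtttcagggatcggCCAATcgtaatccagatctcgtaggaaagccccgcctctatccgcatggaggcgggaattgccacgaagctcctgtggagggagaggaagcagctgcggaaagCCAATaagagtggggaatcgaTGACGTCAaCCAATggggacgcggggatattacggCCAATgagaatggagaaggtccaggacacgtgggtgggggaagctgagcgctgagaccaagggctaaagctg
ATP5MC2 window 1, chr12:53676034-53676333, minus strand: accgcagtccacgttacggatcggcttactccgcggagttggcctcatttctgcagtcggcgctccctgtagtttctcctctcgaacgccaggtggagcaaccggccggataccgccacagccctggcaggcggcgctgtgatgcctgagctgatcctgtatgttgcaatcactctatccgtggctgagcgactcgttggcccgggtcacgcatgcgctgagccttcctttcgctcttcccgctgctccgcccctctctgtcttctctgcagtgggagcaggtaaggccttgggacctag
ATP5MC2 window 2, chr12:53676281-53676580, minus strand: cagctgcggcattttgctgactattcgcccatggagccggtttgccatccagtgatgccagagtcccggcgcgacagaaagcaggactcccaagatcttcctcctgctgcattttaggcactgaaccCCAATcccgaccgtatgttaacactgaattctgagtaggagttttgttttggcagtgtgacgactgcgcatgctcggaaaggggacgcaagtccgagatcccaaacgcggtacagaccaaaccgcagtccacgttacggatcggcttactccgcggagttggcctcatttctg
ATP5MC2 window 3, chr12:53675370-53675669, minus strand: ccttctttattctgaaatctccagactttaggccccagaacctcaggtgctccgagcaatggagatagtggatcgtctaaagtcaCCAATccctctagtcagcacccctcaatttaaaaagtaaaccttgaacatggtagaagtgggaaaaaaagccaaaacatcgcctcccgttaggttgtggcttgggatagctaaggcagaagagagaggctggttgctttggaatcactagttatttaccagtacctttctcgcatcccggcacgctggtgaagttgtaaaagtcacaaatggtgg
COX10, chr17:14069254-14069553, plus strand: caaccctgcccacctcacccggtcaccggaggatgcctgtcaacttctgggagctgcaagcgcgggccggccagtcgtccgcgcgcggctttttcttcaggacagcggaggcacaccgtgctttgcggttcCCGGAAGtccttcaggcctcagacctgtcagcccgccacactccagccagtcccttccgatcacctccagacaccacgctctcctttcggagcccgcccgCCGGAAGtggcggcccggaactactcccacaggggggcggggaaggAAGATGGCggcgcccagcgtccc
The ATP5MC1 window holds 4 CCAAT boxes and 1 TGACGTCA, windows 2 and 3 of ATP5MC2 hold 1 CCAAT each and window 1 none of the motifs searched, and that of COX10 holds 2 CCGGAAG and 1 AAGATGGC.

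The second gene of the COX10 window is COX10-DT, a noncoding gene on the opposite strand whose first base is the one before COX10 begins (chromosome 17, 13756478 to 14069495, GENCODE 29), and it was chosen after its values were seen. COX10-DT had 10.1, 11.2, 11.0 and 11.9 CPM in treated cells, against 21.0, 20.7, 20.4 and 20.5 CPM in vehicle cells (log2 fold change −0.90 ± 0.069 (SE), adjusted p = 2.98e-06), so it was lower in every treated library while COX10 was higher. No source used here says if strand entered the counting.

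RefSeq windows were found for 56 of the 72 members, and the motifs were searched on both strands, with the NRF-1 palindrome besides, and a gene counts when any of its windows holds the motif. Genes are compared with genes: CCAAT was present in 29 of the 56 members (51.8%), against 39.7% of all 27305 genes with a window. Those genes were not matched to the members in gene type or level. CCGGAAG was present in 21 (37.5%, against 12.2% of genes), the NRF-1 palindrome in 14 (25.0%, against 6.98%), AAGATGGC in 7 (12.5%, against 3.52%) and TGACGTCA in 2 (3.57%, against 2.25%). Among members with a window, CCAAT was found in 5 of 8 called higher and 7 of 11 called lower, CCGGAAG in 4 of 8 and 2 of 11, and the NRF-1 palindrome in none of 8 and 3 of 11. A match describes letters in the window and not a bound factor.

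Transcript usage, the division of a gene's reads among its transcripts, changed in 4 of 61 members that could be tested with diffSpliceDGE of edgeR, where 7.32% of all 11747 genes did. The 3 with the smallest adjusted p were UQCC1, ATP5F1C and COX4I1. UQCC1 had 1.33e-08, which rests on a transcript at 0 reads in every vehicle library that entered the test through the treated libraries alone. Without transcripts at 0 reads in all libraries of a group, the adjusted p was 0.00297 for UQCC1, 0.00035 for ATP5F1C (0.000202 with them) and 0.00431 for COX4I1 (0.003 with them). The fourth, COX16, rested on 1 transcript that held 0 to 4.03% of its reads and was lost without any single treated library numbered 2 to 5, or vehicle replicate 2, 3 or 5, and without those transcripts (adjusted p = 0.0546). How reads are divided among transcripts is an estimate, and the error of that estimate is not in the test.

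In COX4I1 (chromosome 16, 85798633 to 85807044, plus strand, GENCODE 29 on hg38) the transcript COX4I1-215, in which exons 3 to 5 and the introns between them form 1 block, took 19.0, 18.5, 18.9 and 22.0% of the gene's reads in treated cells, against 7.14, 9.05, 7.70 and 8.03% in vehicle cells. The treated shares were all more than the highest vehicle share of 9.05% (relative log2 change 0.90, adjusted p = 0.00119). The main coding transcript COX4I1-201 held 63.5 ± 6.4% in treated cells and 74.2 ± 0.38% in vehicle cells. Counted on protein-coding transcripts alone, COX4I1 had a fold change of 0.12 (adjusted p = 0.104), against 0.30 over all its transcripts.
The 2 retained introns begin as follows, with exon bases in capitals and intron bases in lower case.
COX4I1 intron 3, 628 bases, chr16:85805090-85805129: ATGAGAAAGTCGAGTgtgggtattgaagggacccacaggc
COX4I1 intron 4, 873 bases, chr16:85805850-85805889: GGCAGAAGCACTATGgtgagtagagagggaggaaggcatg

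ATP5F1C encodes the gamma subunit, the rotating shaft of the ATP synthase, and its total was not called (log2 fold change 0.05 ± 0.064 (SE), adjusted p = 0.493). Its transcript ATP5F1C-210, which skips exon 2, took 5.52, 7.06, 6.48 and 6.74% of the gene's reads in treated cells, against 0.820, 0.905, 1.42 and 1.15% in vehicle cells (relative log2 change 1.79, adjusted p = 0.000117). This came to 738 to 939 reads per treated library and 101 to 195 per vehicle library. The skipped exon has 35 bases, which is not a multiple of 3, so the reading frame of the full transcript is not kept across the new join.
ATP5F1C exon 2, GENCODE 29 on hg38, plus strand, chr10:7796121-7796155: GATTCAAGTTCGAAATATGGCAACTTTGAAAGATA
The join of exon 1 to exon 3 in ATP5F1C-210 is shown with exon 1 in lower case and exon 3 in capitals.
ATP5F1C-210 join: cttgcagccgcaatgTCACCAGGAGACTAA
The main transcript ATP5F1C-202 held 89.2 ± 0.46% in treated cells and 95.2 ± 0.51% in vehicle cells.

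UQCC1, a factor for the making of cytochrome b, had a total fold change of −0.04 (adjusted p = 0.69), and 2 of its transcripts are described beside the main form. UQCC1-208, which ends inside the intron after exon 7 and so lacks exons 8 to 10 of the main form, took 4.01, 4.72, 3.58 and 4.07% of the gene's reads in treated cells, against 24.2, 16.9, 19.2 and 18.8% in vehicle cells (relative log2 change −1.56, adjusted p = 0.000639). UQCC1-202, which skips exons 5 to 7 of the main form, took 0.716 to 1.92% in treated cells, with 30.3 to 85.6 reads, and 0 reads in the vehicle libraries. It passed the filter on low reads only through the treated libraries, so no p is given for it. A fitted fold change against 0 reads is no bound and is not given, and 0 reads in a vehicle library allow up to 3. The main transcript UQCC1-205 held 78.9 ± 2.5% in treated cells and 71.1 ± 2.7% in vehicle cells.

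**Figure D4:**
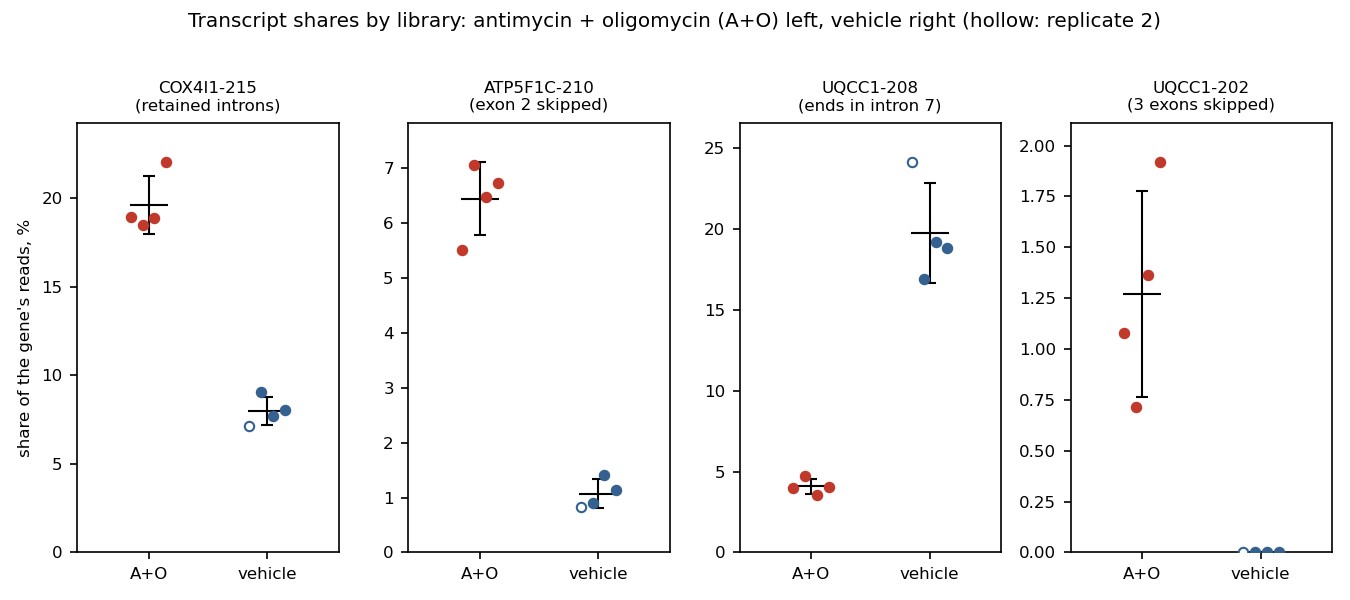
Share of a gene's reads (percent) on COX4I1-215, ATP5F1C-210, UQCC1-208 and UQCC1-202 by library, treated cells (A+O) left and vehicle cells right; points are libraries, bars mean ± SD (n = 4), and hollow points are vehicle replicate 2. The groups do not overlap for COX4I1-215 and ATP5F1C-210, which lie higher in treated cells, or for UQCC1-208, which lies lower. UQCC1-202 passed the read filter only through the treated libraries, so its separation does not count as a result.

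Several members, subunits among them, carried many reads on transcripts that GENCODE 29 does not type as protein-coding. The share of COX18 reads on protein-coding transcripts was 18.6 ± 1.8% with treatment and 26.3 ± 1.4% with vehicle, and that of TTC19 was 25.0 ± 3.0% with treatment and 31.6 ± 3.0% with vehicle (SD, n = 4 each). Counted on those transcripts alone, in 63 members with at least 80% of their reads on known transcripts, COX18 stood at −0.96 (adjusted p = 1.8e-05) and TTC19 at −0.67 (adjusted p = 0.000231). Both are lower than over all transcripts, and ATPAF2 was too, at −0.38 (adjusted p = 0.00449). ATP5PB stood at −0.90 without a call (adjusted p = 0.0503), against −0.12 over all its transcripts. In that count 10 members were higher and 14 lower, where 27.7% and 28.9% of all genes were. That count left out SCO2, COX7A2 and UQCRHL, with 3.74, 15.7 and 66.3% of their reads on known transcripts.

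Subunit genes were expressed at higher levels per length than assembly factor genes. Their median was 273 TPM in treated cells and 254 TPM in vehicle cells. In vehicle cells they ran from COX6B2 at 1.21 to ATP5F1B at 863 TPM. Assembly factor genes had a median of 24.2 TPM in treated cells and 32.0 TPM in vehicle cells, where they ran from UQCC3 at 4.98 to COX17 at 93.3 TPM. The summed level of the 38 subunit genes was 12413, 11972, 12446 and 12784 TPM in treated cells, against 7858, 12569.5, 12970.5 and 13426 TPM in vehicle cells. That of the 24 assembly factors was 818, 826, 827 and 886 TPM in treated cells, against 726, 999, 990.0 and 1034 TPM in vehicle cells. Both sums were lowest in vehicle replicate 2: the ratio of treated over vehicle means was 1.06 for subunits and 0.896 for assembly factors, and 0.955 and 0.833 without that library. For the 3 complex V factors the ratio was 0.728, and 0.697 without it.

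**Figure D5:**
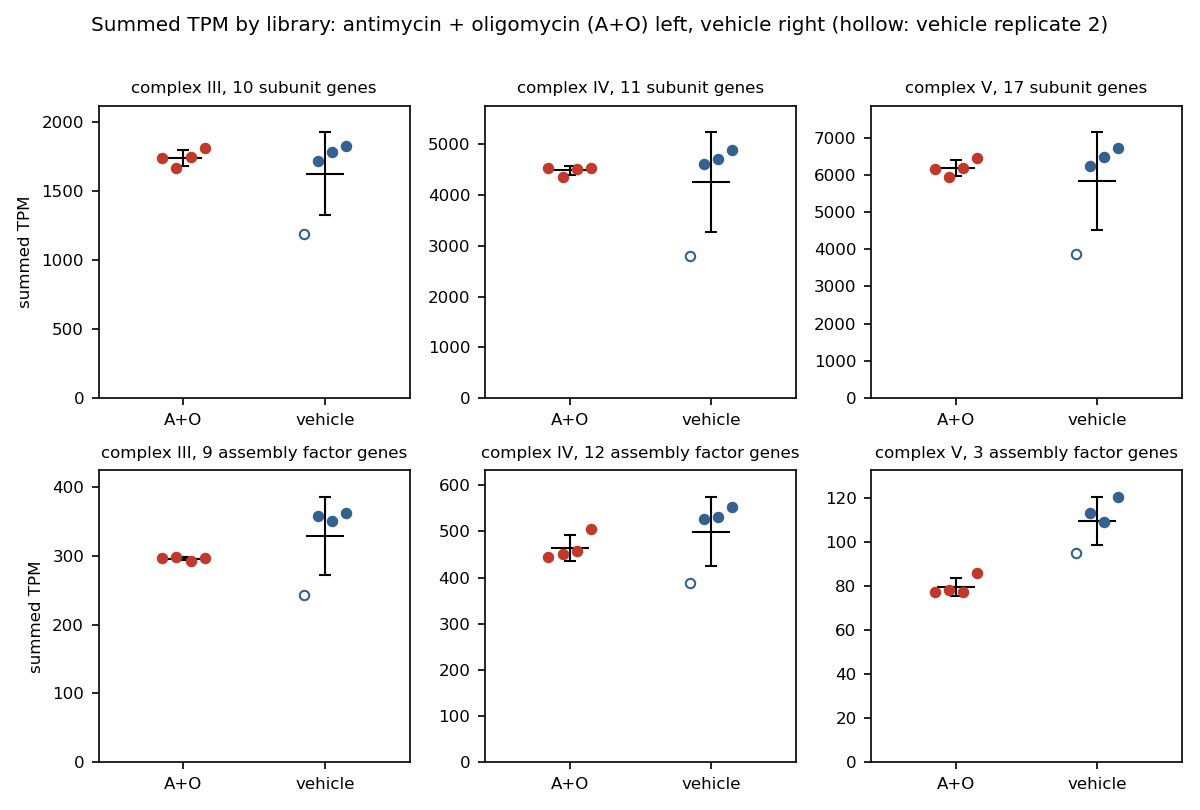
Summed TPM of the tested subunit genes (top) and assembly factor genes (bottom) of each complex by library, treated cells (A+O) left and vehicle cells right; points are libraries, bars mean ± SD (n = 4), and hollow points are vehicle replicate 2. Only the complex V assembly factors separate the groups with all libraries in, and vehicle replicate 2 lies far below the others for all 3 subunit sums.

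The inhibited complexes III and V were set beside complex IV, which neither drug binds. Of 19 tested complex III genes 1 was higher and 4 lower, of 23 complex IV genes 4 were higher and 3 lower, and of 22 complex V genes 2 were higher and 6 lower, beside 27.7% higher and 30.2% lower of all genes. Without vehicle replicate 2 the counts were 2 higher and 8 lower for complex III, 5 and 5 for complex IV, and 2 and 6 for complex V, beside 30.6% higher and 32.4% lower of all genes. The median fold changes were −0.04, 0.05 and 0.09 in the order III, IV and V over all libraries, and −0.13, −0.03 and 0.03 without vehicle replicate 2, so that of complex IV changed sign. Differences between the complexes were not tested.

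Other genes of the same enzymes were read beside the members. All 6 subunits of complexes III, IV and V encoded in mitochondrial DNA had fold changes below 0. Of these 3 were called lower, where 30.2% of all genes were, and 4 without vehicle replicate 2, where 32.4% were. MT-CYB, cytochrome b, had 2568, 2509.8, 2348 and 1782 CPM in treated cells, against 10478, 3682, 3657 and 2729.7 CPM in vehicle cells (log2 fold change −1.16 ± 0.37 (SE), adjusted p = 0.0208). Vehicle replicate 2 was far above the other vehicle libraries, and MT-CYB was −0.55 without vehicle replicate 2 (adjusted p = 0.00631). MT-CO1 was at −0.86 ± 0.31 (SE, adjusted p = 0.0358), or −0.38 without vehicle replicate 2 (adjusted p = 0.0279). MT-CO2, the subunit served by COX18 and COX20, was at −1.10 ± 0.34 (SE, adjusted p = 0.0179), or −0.53 without vehicle replicate 2 (adjusted p = 0.000573). MT-CO3, MT-ATP6 and MT-ATP8 lay at −0.79, −0.95 and −1.44 and missed the threshold at 0.0594, 0.0572 and 0.0573, and without vehicle replicate 2 MT-ATP6 was called at −0.26 (adjusted p = 0.0339).

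Among 24 tested factors of complex IV outside the symbol rule, 4 were higher and 8 lower, 12 of 24 called beside 57.9% of all genes, and 4 higher and 12 lower without vehicle replicate 2. TMEM177, which works with COX20 on new subunit 2, averaged 7.73 ± 0.548 CPM in treated cells and 16.2 ± 1.88 CPM in vehicle cells (log2 fold change −1.07 ± 0.099 (SE), adjusted p = 1.04e-05), and COA4, a twin-cysteine protein, averaged 9.09 ± 0.196 CPM in treated cells and 14.9 ± 0.946 CPM in vehicle cells (log2 fold change −0.71 ± 0.072 (SE), adjusted p = 1.8e-05). COA6, a copper factor for subunit 2, averaged 10.3 ± 1.22 CPM in treated cells and 6.60 ± 0.757 CPM in vehicle cells (log2 fold change 0.65 ± 0.11 (SE), adjusted p = 0.000666), and COA8 averaged 26.9 ± 1.48 CPM in treated cells and 21.2 ± 1.52 CPM in vehicle cells (log2 fold change 0.34 ± 0.075 (SE), adjusted p = 0.00271). Of 4 other complex V factors 1 was higher and 2 lower (75.0% called, against 57.9% of all genes), and 1 higher and 3 lower without vehicle replicate 2, where 62.9% of all genes were called. TMEM242, which acts with TMEM70 on the c ring, averaged 42.5 ± 2.71 CPM in treated cells and 32.2 ± 1.31 CPM in vehicle cells (log2 fold change 0.40 ± 0.067 (SE), adjusted p = 0.000571), while DNAJC30 averaged 3.59 ± 0.376 CPM in treated cells and 9.82 ± 1.41 CPM in vehicle cells (log2 fold change −1.45 ± 0.13 (SE), adjusted p = 6.44e-06) and DMAC2L, coupling factor B, averaged 7.28 ± 0.366 CPM in treated cells and 12.7 ± 1.27 CPM in vehicle cells (log2 fold change −0.80 ± 0.09 (SE), adjusted p = 3.82e-05). The ± values are SD over 4 libraries. None of 3 other factors of complex III and cytochrome c (HCCS, OCIAD1 and OCIAD2) was called by edgeR.

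The authors' deposited table of coding genes lists 43 of the members, of which 14 have a false discovery rate under 0.05, 8 higher and 6 lower, beside 57.7% of all its rows. No member with a symbol that begins with ATP5 was found in it, nor UQCC5 and UQCC6. The calls of ATP5IF1, ATP5MC1, ATP5MC2, ATP5MF, ATP5MK, UQCC5 and UQCC6 were therefore not compared. Of the 14 members called here that the authors' deposited table lists, 12 pass there, all in the same direction. The other 2 are ATPAF2, at −0.22 with a false discovery rate of 0.0849 in the authors' deposited table, and UQCR10, at −0.11 with 0.355 in the authors' deposited table, where the fit here gave −0.24. UQCRC2 (0.23) and UQCRHL (0.55) pass only in the authors' deposited table. Reads of processed pseudogenes were few: 122 pseudogenes with a member's prefix summed to 3.40 to 6.66 CPM per library, where the members summed to 4561 to 5895 CPM.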

How the data were processed

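RNA was sequenced from 4 treated and 4 vehicle libraries. Per the file headers, the authors deposited for each library a table of genes and one of transcripts, with estimated counts, TPM and effective lengths in the layout of salmon; no source used here names the quantifier. The submitters' processing notes name HISAT2, SAMtools, StringTie and hg38, without roles. For coding genes the authors also deposited a signal in each library, normalised in a way not named and not used here, with log2 fold changes, p-values and false discovery rates.

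Estimated counts were rounded and fitted over all genes after filterByExpr and TMM scaling, without covariates, by the quasi-likelihood F-test (edgeR 4.0.16, R 4.3.3), and p-values were adjusted by Benjamini-Hochberg over the 19785 genes tested. An SE here is the absolute fold change divided by the root of F. Transcripts that reached 10 reads in 4 or more libraries entered diffSpliceDGE. Shares were compared by exact permutation over 70 assignments. Gene types and exons came from GENCODE 29 and promoters from RefSeq. Both model fits were tested on simulated data. Alternatives used other scalings, DESeq2 1.42.0, no filter, length offsets, protein-coding genes or transcripts, a block and omitted libraries.

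Members and gene lists were chosen with earlier results of these data known. Library values and statistics are given for called members and for fixed names (the c subunit, ATP5IF1, CYCS, UQCRFS1, CYC1, UQCRC1, UQCRC2, ATP5F1A, ATP5F1B, COX4I1, COX4I2, COX7A2L, BCS1L, SCO1, SCO2, SURF1 and TMEM70), for the mitochondrial genes, for up to 2 rising and 2 falling genes of each other list, and for the 3 members with the smallest p of transcript usage. Limits from counts of 0 cover counting error only. One marker gene is not reported here.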

Additional observations from a re-analysis of the deposited data

Results flagged for a closer look

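In 20 of 90 groups of 4 libraries, 1 library lay far from the other 3, by Dixon's test at the 95% level, which chance alone gives in about 1 of 20 groups. Of these libraries 16 were vehicle replicate 2, 3 treated replicate 5 and 1 treated replicate 3. No cause was tested.

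Vehicle replicate 2 was low for genes of several roles. ATP5F1B, the catalytic beta subunit, had 490.3 CPM there, against 754 to 797 CPM in the other vehicle libraries. UQCRC1, a core protein of complex III, had 78.3 CPM, against 122 to 127 CPM. UQCRFS1, the Rieske protein, had 51.6 CPM, against 67.9 to 69.9 CPM. The assembly factors SURF1, SCO2 and TMEM70 had 7.51, 4.25 and 18.5 CPM, where the lowest of the others were 13.4, 6.83 and 23.5 CPM. CYCS had 299 CPM, against 356 to 361 CPM.

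The same library was high for ATP5IF1 at 85.6 CPM, against 57.2 to 58.8 CPM, and for COX20 at 64.5 CPM, against 53.7 to 55.0 CPM. The share of UQCRHL among reads of itself and UQCRH was 15.2% in it, against 7.91 to 8.58%.

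Its summed TPM was 7858 for all subunits, 2794 for complex IV subunits and 3881 for complex V subunits, with at least 12570, 4616 and 6240.0 TPM in the others. For assembly factors it was 726 TPM in all, 243 TPM for complex III and 388 TPM for complex IV, with at least 990.0, 351 and 527 TPM in the others.

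Treated replicate 5 was high for CYCS at 415 CPM, against 339 to 350.4 CPM in the other treated libraries. It was also high in the summed TPM of all assembly factors at 886, against at most 827, and of complex V assembly factors at 85.7, against at most 78.4. Treated replicate 3 had a summed TPM of 4363 for complex IV subunits, against at least 4509 in the other treated libraries.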

How the results depend on the processing

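Of the 21 calls, 12 held under all 19 alternatives: ATP5MC1, ATPAF1, COX10, COX15, COX18, COX19, COX20, TMEM70, TTC19, UQCC6, UQCR10 and UQCRH, although UQCR10 has a false discovery rate of 0.355 in the authors' deposited table. The other 9 were lost in at least 1. SCO1 turned to −0.31 with a length offset and to −0.36 without vehicle replicate 2 as well, an alternative chosen after the data were seen, as were those that leave out both libraries numbered 2, that combine library totals with leaving out vehicle replicate 2, that count protein-coding transcripts only and that drop transcripts at 0 reads in all libraries of a group. Library totals gave 4 members higher and 2 subunit genes higher, and again 4 and 2 without vehicle replicate 2, with 28 members, 10 subunit genes and 17 assembly factor genes lower. Of all 20184 genes in that last fit 4718 were higher and 8129 lower. RLE size factors and DESeq2 each gave 8 subunit genes higher. The length offset gave 9, and without vehicle replicate 2 it gave 12, with 17 members and 4 assembly factor genes higher and 5 subunit genes lower. Leaving out both libraries numbered 2 also gave 5 subunit genes lower. On protein-coding transcripts 3612 genes were higher and 3764 lower of 13039 fitted, a smaller set than the 5484 and 5977 of all genes. Causes were not tested otherwise.

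With 1 library left out, 8 to 10 members were higher and 10 to 19 lower, 5 to 7 subunit genes higher and 2 to 5 lower, 2 to 3 assembly factor genes higher and 7 to 13 lower, and over all genes 4914 to 6170 higher and 5300 to 6532 lower. Transcript usage was called in 3 to 5 members, and in 3 without transcripts at 0 reads in all libraries of a group. The difference in the ATP5MC1 share stayed between −3.93 and −3.46 percentage points, that of ATP5MC2 between 2.89 and 5.65, that of UQCRHL between −2.81 and −0.38, and that of ATP5MC3, −0.21 over all libraries, between −2.19 and 1.04, at 0.46 and 0.40 without treated replicate 2 or 3 and at 0.04, 0.29 and 1.04 without vehicle replicate 3, 4 or 5. In TPM the ATP5MC3 share differed by 2.24 points (exact permutation p = 0.743) and the UQCRHL share by −6.17 points (exact permutation p = 0.0286).

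Libraries with the same number did not deviate together (r = −0.08, 0.03, 0.03 and −0.001), so the number was not taken as a pairing. As a replicate block it lost the calls of ATPAF2 (−0.21, adjusted p = 0.0761) and UQCC5 (−0.33, adjusted p = 0.0593) and added UQCRC2 (0.21, adjusted p = 0.0406), all by edgeR. The sign-flip test over pairs, a replicate block for the ATP5MC1 share, kept −3.74 points with p = 0.125, the smallest exact value 4 pairs allow. With 4 libraries a group, small changes of low genes such as UQCC5 and SCO2 are the least certain.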
